A study of Mus musculus with 8 samples.

Results

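Mouse liver miRNAs were compared after 4 weeks of carbon tetrachloride (CCL4) injury, the earliest time sampled in this fibrosis model. The groups were adult male mice of the C57BL/6J strain (aged 8 weeks), which received CCL4 in olive oil by the intraperitoneal route with 2 injections a week, and mice of the same strain, age and schedule that received olive oil alone. The labels give fibrosis as the disease state. There was 1 array of CCL4 mice and 1 array of control mice at 4 weeks, and no source says if 1 mouse or a pool of mice was on an array. A miRNA was a member when the scanner software called it detected on either array, which gave 161 of the 567 mouse miRNAs on the array. Of these, 115 were detected on both arrays, 43 on the CCL4 array only and 3 on the olive oil array only. At least 1 of the 8 arrays of the series detected 178 miRNAs. The other 6 arrays were 2 of CCL4 mice and 1 of control mice at 6 weeks and again at 8 weeks, after weekly injections from week 4 onward. Because each treatment had 1 array at 4 weeks, no test and no p-value could be had, and all differences below are descriptions of these 2 arrays.

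A miRNA is a short RNA that pairs with messenger RNAs, mainly through the seed at its bases 2 to 8, and lowers their translation and stability. CCL4 is turned into a reactive radical by cytochrome P450 enzymes of hepatocytes and kills these cells around the central veins. Repeated doses bring in leukocytes and turn hepatic stellate cells into collagen-producing myofibroblasts, and each of these cell types carries its own miRNAs. In liver tissue fewer cells of a type and less of a miRNA per cell cannot be told apart.

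The miRNAs that carry the pattern at 4 weeks are shown first, 5′ to 3′ with the seed in capitals, from RefSeq (GRCm38.p6) except miR-199b*, whose sequence came from a table supplied with the study. The first set had higher signals on CCL4 arrays at 4, 6 and 8 weeks, and its first pair shares a seed and differs by C10U (miR-199a-5p base first, position counted from the 5′ end).
miR-199a-5p: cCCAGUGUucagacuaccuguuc
miR-199b*: cCCAGUGUuuagacuaccuguuc
miR-199b: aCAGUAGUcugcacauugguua
miR-214: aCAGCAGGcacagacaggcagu
miR-34a: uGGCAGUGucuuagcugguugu
miR-31: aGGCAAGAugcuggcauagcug
miR-125a-5p: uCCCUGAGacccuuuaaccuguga
let-7e: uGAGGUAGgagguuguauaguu
miR-99b: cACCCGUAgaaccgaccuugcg

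The second set is shown because its members had a signal on the CCL4 array of 4 weeks at least 3-fold that of each of the other 7 arrays, before any scaling. Signals of those 7 arrays below 7.12, the lowest one detected on the olive oil array of 4 weeks, counted as 7.12.
miR-1224: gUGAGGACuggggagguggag
miR-188-5p: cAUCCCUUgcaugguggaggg
miR-135a*: uAUAGGGAuuggagccguggcg
miR-680: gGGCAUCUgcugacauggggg
miR-877: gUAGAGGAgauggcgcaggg
miR-721: cAGUGCAAuuaaaagggggaa
miR-494: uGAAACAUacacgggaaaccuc

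The third set was lower on the CCL4 array of 4 weeks. Before scaling, miR-29a (1308 against 1369) and miR-29b (812 against 852) were only slightly lower. The miR-29 members share 1 seed, and miR-29c differs from miR-29a by U10C (miR-29c base first).
miR-29c: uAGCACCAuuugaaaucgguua
miR-29a: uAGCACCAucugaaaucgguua
miR-29b: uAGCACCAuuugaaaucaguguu
miR-192: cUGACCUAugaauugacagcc
miR-101b: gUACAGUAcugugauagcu

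Several of these lie close together in the mouse genome. miR-99b, let-7e and miR-125a-5p lie on the plus strand of chromosome 17 at chr17:17830194-17830215, chr17:17830366-17830387 and chr17:17830817-17830840, within the span of the protein-coding gene Spaca6. The chromosome 1 copy of miR-199a-5p at chr1:162217844-162217866 and miR-214 at chr1:162223438-162223459 lie within the long noncoding RNA Dnm3os and the gene Dnm3. RefSeq lists miR-199b at chr2:32318524-32318545 within Dnm1, but miR-199a-3p, which is made from other hairpins, has the same letters. RefSeq holds 3 such copies in all, and the array cannot tell which hairpin a miR-199b signal comes from. miR-29b (the chromosome 1 copy) and miR-29c lie within the noncoding gene A330023F24Rik, at chr1:195037091-195037113 and chr1:195037600-195037621. miR-1224 at chr16:20604452-20604472 lies within Vwa5b2, miR-188-5p at chrX:7248031-7248051 within Clcn5, and miR-34a at chr4:150068473-150068494 within no other gene of that table.

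The level of each miRNA was its total gene signal in arbitrary units. The scanner software combined it from the background-subtracted brightness of the spots (20 spots for most miRNAs, over 2 or 4 probes). It is not the plain sum of the spot signals. The CCL4 array was brighter, but only slightly in the summed signal of all mouse miRNAs (87399 against 83437). The median signal over the 115 miRNAs detected on both arrays was 114 on the CCL4 array and 67.4 on the olive oil array, and 5 control features of the array were 1.11- to 1.41-fold brighter on the CCL4 array. The methods divide by the 75th percentile of the measurements of a species without saying whether it was taken per array. Taken per array over the mouse miRNAs, it was 9.50 on the CCL4 array and 5.11 on the olive oil array, below the highest undetected signals (9.95 and 12.1). The ratio of these percentiles, 1.86 or 0.89 on the log2 scale, is a constant between the scaled and the unscaled fold of every miRNA above the floor. The median log2 difference (CCL4 minus olive oil) over the 115 was therefore 0.33 unscaled and -0.56 scaled. Unscaled, 82 of the 115 were higher with CCL4 and 33 lower. Scaled, 31 were higher and 84 lower. For this reason both values are given, and the centred difference (the log2 difference minus that median) is used where an order matters, because no constant changes it.

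With a threshold of 1.5-fold, 45 of the 161 miRNAs (28.0%) were higher and 59 (36.6%) lower on the scaled values, and 80 (49.7%) were higher and 5 (3.11%) lower on the unscaled ones. On both scales 45 were higher (28.0%) and 5 lower (3.11%). Over the 115 detected on both arrays, 14 (12.2%) were higher and 54 (47.0%) lower scaled, and 41 (35.7%) were higher and 2 (1.74%) lower unscaled. The other 31 of the 45 were detected on the CCL4 array only, and for them the count rests on olive oil signals below detection. The 5 were miR-29c, miR-219, miR-1, miR-133b and miR-542-5p, of which only miR-29c and miR-219 were detected on both arrays.

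**Figure D1:**
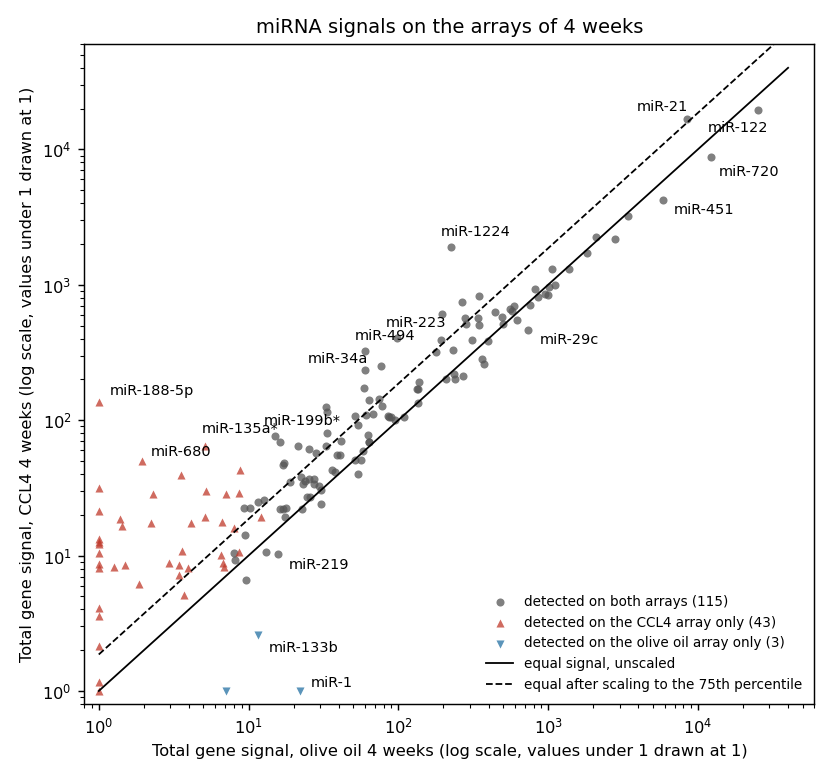
Total gene signal of the 161 miRNAs on the olive oil array (x axis) and the CCL4 array (y axis) of 4 weeks, both on log axes in arbitrary units, with signals under 1 drawn at 1. Points above the dashed line were higher with CCL4 on both scales and points below the solid line were lower on both; among the miRNAs detected on both arrays miR-1224 (1896 against 226) stood farthest above, and the abundant miR-122 lay below.

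The spread of differences at 4 weeks was wider than between arrays of 1 group. A centred difference of at least 1.5-fold was found for 43 of 115 miRNAs (37.4%), 30 above the median difference (26.1%) and 13 below it (11.3%). Between the 2 CCL4 arrays of 6 weeks the same count was 3 of 118 (2.54%), and between those of 8 weeks 5 of 123 (4.07%). Pairs of olive oil arrays of different weeks gave 4.31, 5.22 and 6.09%, and the 4 later CCL4 arrays against the olive oil array of their week gave 13.4 to 16.8%. The SD of the log2 differences was 0.73 at 4 weeks and 0.21 in both CCL4 pairs. No miRNA of these pairs lay farther than 0.93 from its median, and at 4 weeks 16 lay farther above and 2 farther below. The olive oil arrays differed from each other by up to 1.73 (miR-144), a distance that miR-1224, miR-494, miR-199b* and miR-125a-5p exceeded at 4 weeks. Within an array the error was small. The standard error of the log2 difference from replicate spots had a median of 0.036 and reached 0.283 for the dim miR-30c-2*.

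**Figure D2:**
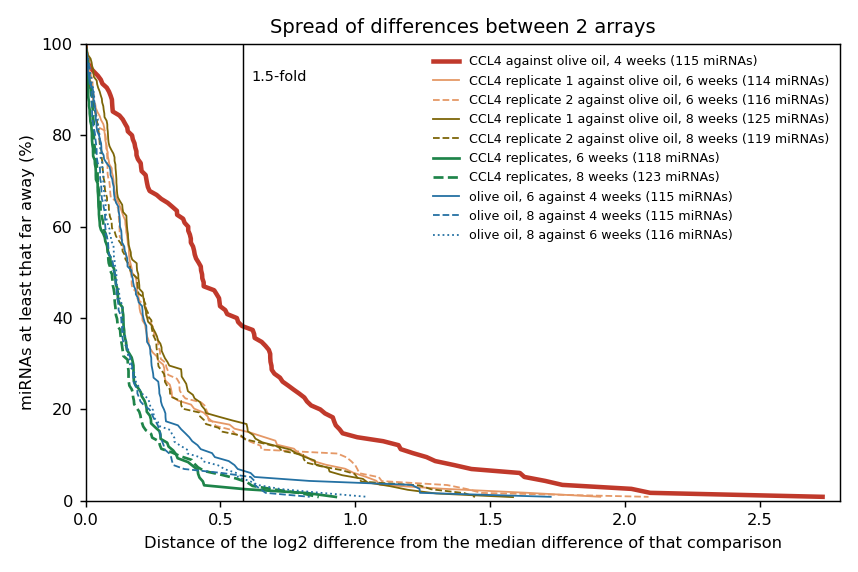
Share of miRNAs (y axis, %) whose log2 difference between 2 arrays lay at least a given distance (x axis) from the median difference of that comparison. At the 1.5-fold line the comparison of 4 weeks stood at 37.4%, the CCL4 replicates of 6 and 8 weeks at 2.54 and 4.07%, and the later comparisons of CCL4 with olive oil at 13.4 to 16.8%.

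Both arrays of 4 weeks stood apart from the others in some miRNAs. Signals of the other 7 arrays below 7.12, the lowest one detected on the olive oil array of 4 weeks, were first raised to 7.12. With this floor the CCL4 array had 8 miRNAs with a signal at least 3-fold that of each other array (miR-188-5p, miR-135a*, miR-680, miR-877, miR-721, miR-1224, miR-689 and miR-494). With the floor and after scaling 4 miRNAs reached 3-fold (miR-188-5p, miR-135a*, miR-680 and miR-1224). Without the floor dimmer miRNAs would pass as well, such as miR-125a-3p (16.5 against at most 2.63). Of its 43 miRNAs that the control array of 4 weeks did not detect, 26 were detected on no other array. Detection was called at lower signals on this CCL4 array, down to 0.139 against 5.59 to 8.16 on the other 7 arrays, and 7 of the 43 had signals below the lowest one detected on the olive oil array of 4 weeks. The olive oil array was the only array to detect miR-1 and miR-133b, which mark striated muscle. The signals of miR-1 and miR-133b were 22.1 and 11.6 there, while miR-1 was below 0 on the other 7 arrays and miR-133b lay between 0.810 and 4.54. The summed signal of the 6 muscle miRNAs of the array was 42.1 on it and 1.93 to 6.69 on the others, and miR-133a, miR-206, miR-208a and miR-499 were not detected on either array of 4 weeks. The part of muscle RNA in the olive oil values was not tested. miR-542-5p, the other miRNA that the olive oil array alone detected, had a signal of 7.12 with spots from -7.90 to 106 around a median of -0.786, so the total came from a small part of its spots.

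**Figure D3:**
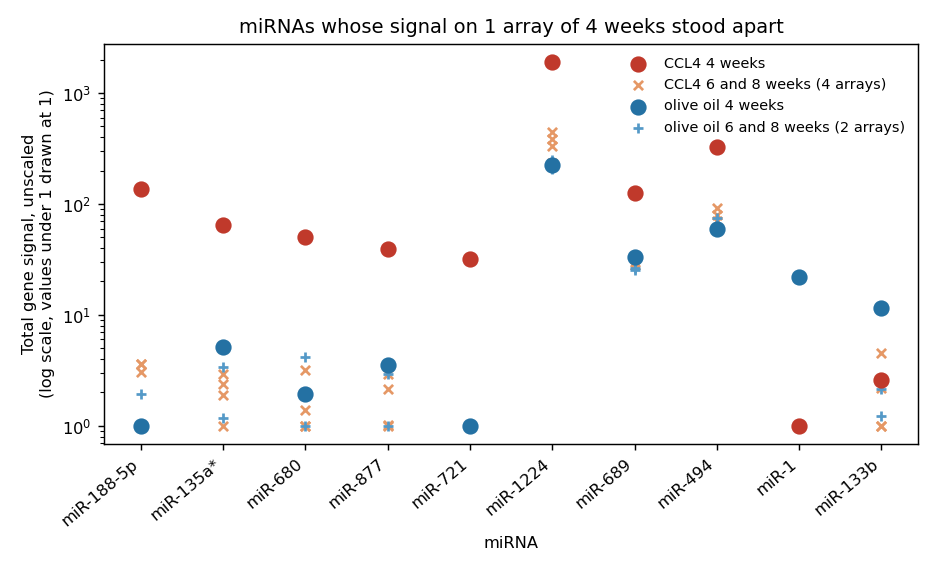
Unscaled total gene signal (y axis, log scale, arbitrary units, values under 1 drawn at 1) of 8 miRNAs high on the CCL4 array of 4 weeks and of miR-1 and miR-133b on each of the 8 arrays. The CCL4 array of 4 weeks stands alone at the top for the first 8, from 31.7 for miR-721 to 1896 for miR-1224, and the olive oil array of 4 weeks for the last pair.

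The largest difference among miRNAs detected on both arrays was that of miR-1224, a miRNA made from a short intron without the Drosha step (a mirtron). Its signal was 1896 with CCL4 and 226 with olive oil, 8.38-fold higher unscaled and 4.51-fold scaled (spot standard error 0.027 on the log2 scale). The spots of all 4 of its probes were above those of the olive oil array, and the 3 probes with a positive mean on both arrays gave 2.72 to 3.92 on the log2 scale. On the later CCL4 arrays it was 235 and 334 at 6 weeks against 205, and 445 and 385 at 8 weeks against 248. The array of 4 weeks thus lay far above all the rest. Its centred difference was 2.73 at 4 weeks and 0.25 to 0.34 later (values of several weeks are centred on the 113 miRNAs that every array detected). miR-494, from the imprinted Dlk1-Dio3 region, was 323 against 60.0, 5.38-fold higher unscaled and 2.89-fold scaled. Its spots ran from 132 to 330.4 (median 297) with CCL4 and from 23.9 to 71.7 (median 55.6) with olive oil, and did not overlap. Its later CCL4 signals of 60.7 to 92.6 overlapped the control signals of 59.7 to 75.1. miR-689 had 126 against 32.9 and 28.2 to 32.5 on the later CCL4 arrays, against 25.5 and 26.3 on the later control arrays.

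Other members of this group were not detected on the control array. miR-188-5p had a signal of 136 on the CCL4 array of 4 weeks, with single spots from 84.5 to 118, and no more than 3.64 on any other array. Where only the CCL4 array detected a miRNA, the fold is a bound against the lowest signal detected on the olive oil array (7.12) or its own signal there if higher. That 7.12 is the signal of miR-542-5p, which came from a small part of its spots, and undetected olive oil signals reached 12.1. The folds given as at least a value are thus set against this reference and are not strict limits. By this measure miR-188-5p was at least 19.1-fold higher unscaled and at least 10.3-fold scaled. miR-135a* was 64.8 (at least 9.10-fold and 4.89-fold), and its guide strand miR-135a was not detected on either array. miR-680, miR-877 and miR-721 were at least 7.02-, 5.55- and 4.45-fold higher unscaled, with scaled bounds of 3.78-fold for miR-680 and 2.98-fold for miR-877, and none of them was detected on any of the other 7 arrays. miR-574-5p was 43.2 against 8.76 (at least 4.93-fold unscaled, 2.65-fold scaled) and lay between 9.36 and 15.6 on the 6 arrays of 6 and 8 weeks. miR-801 was 28.6 against 2.30, at least 4.01-fold and 2.16-fold, and miR-214 is described with the stellate miRNAs. These 8 were the largest bounds. Of the 43 miRNAs detected on the CCL4 array only, 23 had an unscaled bound of 1.5-fold or more and 11 a scaled one. Their median signal was 12.2, and 21 lay below the highest undetected signal of the olive oil array.

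Most of the 7 sequences shown for this group held more G than the median miRNA of the array. The share of G was 61.9% in miR-1224, 55.0% in miR-877 and 47.6% in miR-680, with a median of 45.5% over the 7, but 33.3% in miR-721 and 18.2% in miR-494. The median was 22.7% over the 97 other miRNAs with a sequence and 23.2% over 340 mouse miRNAs of the array. Over the 30 sequences of miRNAs detected on the CCL4 array only, some of this group among them, it was 31.1%. The highest share, 70.0%, was that of miR-705, which is not in the group, so a high share was not particular to it. The group was chosen by its signal on 1 array, and this is a description of its sequences with no test. Over 72 miRNAs with a sequence that were detected on all 8 arrays, the difference at 4 weeks had a Pearson correlation of 0.38 with the G+C share and 0.12 with the G share, and the 4 later comparisons gave 0.09 to 0.18 and -0.02 to -0.01. The Spearman correlations were 0.33 and -0.06 at 4 weeks, and 0.13 to 0.28 and -0.12 to -0.03 later, so by rank the weeks lay closer together. These miRNAs share the 2 arrays compared, and related sequences are among them.

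Among the miRNAs of stellate and other mesenchymal cells, 7 of the 12 on the array were members, and 6 were detected on both arrays. Their median centred difference was 1.18, with 4 of 6 at least 1.5-fold above the median difference and none 1.5-fold below, against 26.1% and 11.3% of all 115. miR-199a-5p, miR-199b and miR-199b* are also on the study's list of 11, chosen on these same arrays, so this count is not independent evidence. miR-199b*, the strand of the miR-199b hairpin that shares its seed with miR-199a-5p, had a signal of 76.9 with CCL4 and 15.0 with olive oil. That was 5.13-fold higher unscaled and 2.76-fold scaled, with its probes at 2.24 and 2.29 on the log2 scale. At 6 weeks the CCL4 arrays gave 35.8 and 55.6 against 10.2, and at 8 weeks 93.8 and 70.9 against 20.9. Unscaled, the lowest CCL4 array (35.8) was above the highest control array (20.9), and how many other miRNAs did the same was not counted. The centred difference was 2.02 at 4 weeks and 1.44 to 2.08 on the later arrays, so the difference of 4 weeks lay within the later range. miR-199b was 249.8 against 76.9 (3.25-fold unscaled, 1.75-fold scaled), and miR-199a-5p was 46.3 against 17.1 (2.71-fold and 1.46-fold).

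miR-214, which shares the Dnm3os transcript with miR-199a, was detected with CCL4 only, at 30.1 against 5.19, at least 4.23-fold higher unscaled and 2.27-fold scaled. On the later CCL4 arrays it was 12.6 to 32.1, above 5.61 and 11.9 on the control arrays of those weeks. miR-143, a miRNA of smooth muscle and myofibroblasts, was 64.5 against 21.3, 3.03-fold and 1.63-fold higher. Its centred difference of 1.26 was larger than on the later arrays (0.35 to 0.59), while its cluster partner miR-145 was not detected on either array. miR-140 and miR-140*, both strands of a hairpin of cartilage and mesenchymal cells, had centred differences of -0.01 and 0.17. The summed signal of the 12 on the array, with negative signals set to 0, was 607 with CCL4 and 239 with olive oil. It was 196 and 307 on the other control arrays and 290.1 to 739 on the later CCL4 arrays.

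The injury and p53 group was also higher. Of 10 on the array 7 were members, and 3 of the 4 detected on both arrays were at least 1.5-fold above the median difference (26.1% of the 115 were), with a median of 1.04. Here too miR-34a and miR-31 are on the study's list of 11, so this count is not independent evidence. miR-34a, a direct transcriptional target of p53, was 235 against 60.3, 3.89-fold higher unscaled and 2.09-fold scaled, and both of its probes gave 1.85 on the log2 scale. Its later signals were 202 and 246 against 69.7 at 6 weeks, and 423 and 379 against 115 at 8 weeks, with centred differences of 1.30 to 1.64 beside 1.63 at 4 weeks. The lowest unscaled miR-34a signal of a CCL4 array (202) was above the highest of a control array (115). The share of all miRNAs that did so was not counted. miR-31 was 114 against 33.5 (3.40-fold and 1.83-fold), and its star strand miR-31* was 28.9 against 8.57, at least 3.37-fold and 1.81-fold. Both strands of the miR-31 hairpin were also above the control array of the week on all 4 later CCL4 arrays. miR-15b had a smaller difference at 4 weeks (502 against 346, centred 0.20) than later (0.36 to 0.89). miR-210, a target of hypoxia-inducible factor, was detected with CCL4 only (17.6 against 6.62, at least 2.47-fold unscaled and 1.33-fold scaled). miR-34b-5p was detected with CCL4 only at a signal of 8.07.

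miR-21, among the most abundant liver miRNAs and known to be induced in injured and fibrotic tissue, was 16858 with CCL4 and 8509 with olive oil. It was 1.98-fold higher unscaled and 1.07-fold scaled, so whether it passed 1.5-fold rested on the scaling. Its centred difference was 0.65, above the 0.06 to 0.24 of the later arrays. It took 19.1% of all mouse miRNA signal on the CCL4 array and 10.1% on the control array, while the share of miR-122 was lower with CCL4. Its star strand was detected with CCL4 only, at 8.65.

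All 3 miRNAs shown above from the chromosome 17 cluster were higher. miR-125a-5p was 69.0 against 16.1, 4.29-fold higher unscaled and 2.31-fold scaled (spot standard error 0.098). On the later CCL4 arrays it was 24.7 to 58.8, against 12.4 and 19.3. let-7e was 172 against 58.8 (2.92-fold and 1.57-fold), and miR-99b, which the control array did not detect, was 19.2 against 5.10 (at least 2.69-fold and 1.45-fold). In each of the 3 the CCL4 arrays of 6 and 8 weeks were also above the control array of their week, and the centred differences of miR-125a-5p and let-7e were larger at 4 weeks (1.77 and 1.21) than on the later arrays (0.87 to 1.09 and 0.79 to 1.04). The opposite strand miR-125a-3p reached 16.5 with CCL4 and at most 2.63 on the other arrays.

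let-7e stood apart from the rest of its family. All 9 let-7 members share a seed, and let-7e differs from let-7a by G9U (let-7e base first). The median centred difference of the 9 was -0.23, with 1 of 9 at least 1.5-fold above the median difference and none below, against 26.1% and 11.3% of the 115. With quantile normalization this median was 0.12. let-7a was 1710 against 1816, let-7f 2242 against 2085 and let-7g 997 against 1109. These abundant members were within 1.11-fold unscaled and were 2.07- to 1.73-fold lower scaled. let-7i was the second highest, at 510.1 against 283 and a centred difference of 0.52.

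Of the 2 epithelial miRNAs detected on both arrays, miR-200a was 22.6 against 10.2 and miR-200b 22.3 against 9.39, 2.23-fold and 2.38-fold higher unscaled but under 1.5-fold scaled. These dim miRNAs keep the epithelial state by repressing ZEB factors and mark bile duct cells in liver. Their centred differences were 0.82 and 0.92 at 4 weeks, and 0.44 to 0.64 and 0.58 to 0.92 later. miR-96 was 16.0 against 8.04 and detected with CCL4 only, and 7 of the 10 epithelial miRNAs of the array were detected on neither array.

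The study's list of 11 miRNAs related to fibrosis progression names miR-125-5p without a letter, which was read as miR-125a-5p. The 11 had a median centred difference of 1.21, and all 11 were at least 1.5-fold above the median difference (26.1% of the 115 were). Scaled, 6 of 11 were at least 1.5-fold higher against 12.2% of the 115, and unscaled 11 were against 35.7%. With miR-125b-5p in its place the scaled count was 5. The study chose them on these same arrays, so their direction is not independent evidence. Other lists that hold some of the 11 share this limit, among them the epithelial list and the miR-99b, let-7e and miR-125a cluster. Of the list, miR-497 was 142 against 63.3. miR-802, a hepatocyte miRNA, was 25.6 against 12.7, with a centred difference of 0.68 at 4 weeks that was below those of all 4 later arrays.

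Several leukocyte miRNAs were higher at 4 weeks, with miR-223, the neutrophil and monocyte miRNA, in front. Of 9 on the array 7 were members, with a median centred difference of 0.73 over the 5 detected on both arrays. Of these 5, 3 were at least 1.5-fold above the median difference, against 26.1% of the 115. miR-223 was 403 against 98.0, 4.11-fold higher unscaled and 2.21-fold scaled. Its signals on the later CCL4 arrays were 78.2 and 127 against 72.9 at 6 weeks, and 188 and 138 against 109.9 at 8 weeks. The array of 4 weeks was more than any of these, and the centred difference, 1.71 over the 115, was 0.01 to 0.44 later. miR-142-3p, found in all blood-forming lineages, was 827 against 346 (2.39-fold and 1.28-fold), with a centred difference of 0.92 against -0.04 to 0.26 later. The control arrays of 4, 6 and 8 weeks disagreed about it, at 346, 185 and 342. They also disagreed about miR-142-5p of the same hairpin, at 41.4, 16.7 and 45.1. miR-342-3p was 107 against 51.2.

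The list was not uniform. miR-142-5p was 70.6 against 41.4, 1.71-fold higher unscaled but not scaled, with a centred difference of 0.44. miR-146a, induced by NF-κB in inflammation, was 59.0 against 58.5, with a centred difference of -0.32. miR-155 and miR-146b, also induced in activated immune cells, were detected with CCL4 at 4 weeks and on no other array, at 13.3 and 10.4. miR-150 of mature lymphocytes was not detected. The summed signal of the 9 on the array, with negative signals set to 0, was 1493 with CCL4 and 598 with olive oil at 4 weeks. It was 375 and 659 on the other control arrays, and 362 to 984 on the later CCL4 arrays.

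**Figure D4:**
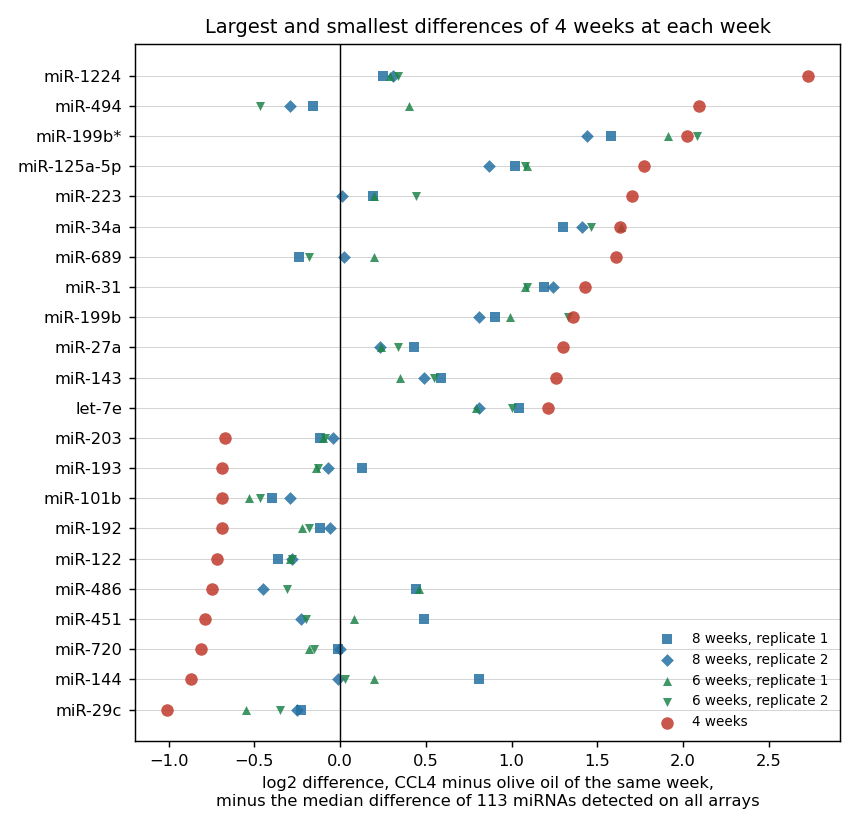
Centred log2 difference (x axis) of the largest and smallest differences of 4 weeks that were detected on all 8 arrays (rows), shown for the CCL4 array of 4 weeks and each CCL4 array of 6 and 8 weeks against the olive oil array of its week. For miR-199b*, miR-34a and miR-31 the points of all weeks lie together, while for miR-1224, miR-494, miR-689 and miR-223 the point of 4 weeks lies far to the right of the others.

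The 13 miRNAs at least 1.5-fold below the median difference (11.3% of the 115) held 3 of the 7 hepatocyte miRNAs (miR-122, miR-192 and miR-101b) and 3 erythroid ones. All 7 hepatocyte miRNAs were detected on both arrays, and 6 were below the median difference. Their median centred difference was -0.50, and -0.07 with quantile normalization. miR-122, the dominant hepatocyte miRNA, was 19389 with CCL4 and 25371 with olive oil, 1.31-fold lower unscaled and 2.43-fold lower scaled. On the later arrays it was 18497 and 25638 against 24201, and 35101 and 30800 against 30018, so the unscaled groups overlapped, and the centred difference was -0.72 at 4 weeks and -0.36 to -0.28 later. miR-192, driven by hepatocyte nuclear factors in liver, was 2168 against 2778 (1.28-fold and 2.38-fold lower). Its cluster partner miR-194 was 553 against 619.5, and miR-148a was 856 against 946. miR-101b, which targets the methyltransferase EZH2, was 282 against 360.4 (1.28-fold and 2.37-fold lower) and kept a centred difference of -0.53 to -0.29 later, beside -0.69.

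miR-29c, a repressor of collagen messages, was the miRNA detected on both arrays with the largest difference downward. Its signal was 463 with CCL4 and 739 with olive oil, 1.60-fold lower unscaled and 2.97-fold lower scaled, with its probes at -0.80 and -0.76 unscaled. Its spots ran from 273 to 367 (median 309) with CCL4 and from 439 to 639 (median 555) with olive oil, and did not overlap. On the CCL4 arrays of 6 weeks it was 487 and 774 against 766, and on those of 8 weeks 1263 and 1037 against 986. It was thus below the control array unscaled on 2 of the 5 CCL4 arrays, and its centred difference was -1.01 at 4 weeks and -0.55 to -0.23 later. The other members were less far down. miR-29a was 1308 against 1369 and miR-29b 812 against 852, each with a centred difference of -0.40, and the star strands of the family were not detected on either array of 4 weeks.

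Dimmer members of the lower group rest on weaker signals. miR-219 was 10.2 against 15.7 (1.54-fold lower unscaled, 2.86-fold scaled, spot standard error 0.155), and miR-455 was 6.57 against 9.66 (spot standard error 0.206), both near the signals at which detection stops. miR-193 was 211 against 269, and it and miR-203 were 1.28- and 1.26-fold lower unscaled. The feature annotated as miR-720, since reclassified as a fragment of a transfer RNA, was 8839 against 12314, 1.39-fold and 2.59-fold lower. The miR-30 family had a median centred difference of -0.37, with none of its 5 members 1.5-fold from the median difference. miR-22, another abundant liver miRNA, was 3216 against 3433.

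The erythroid miRNAs were lower, but the control arrays disagreed about them. miR-451, miR-144 and miR-486, which mark red blood cells, were 1.37-, 1.45- and 1.34-fold lower unscaled and 2.56-, 2.70- and 2.48-fold lower scaled. Their signals were 4242 against 5832, 258 against 375 and 40.2 against 53.8. On the control array of 6 weeks they were 2398, 108 and 21.7, which is 1.21, 1.73 and 1.24 log2 units farther down from the control array of 4 weeks than the median miRNA. With the mean of the 3 olive oil arrays as the control, the median centred difference of the 3 was -0.17 in place of -0.79. The part of blood in the tissue was not tested.

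**Figure D5:**
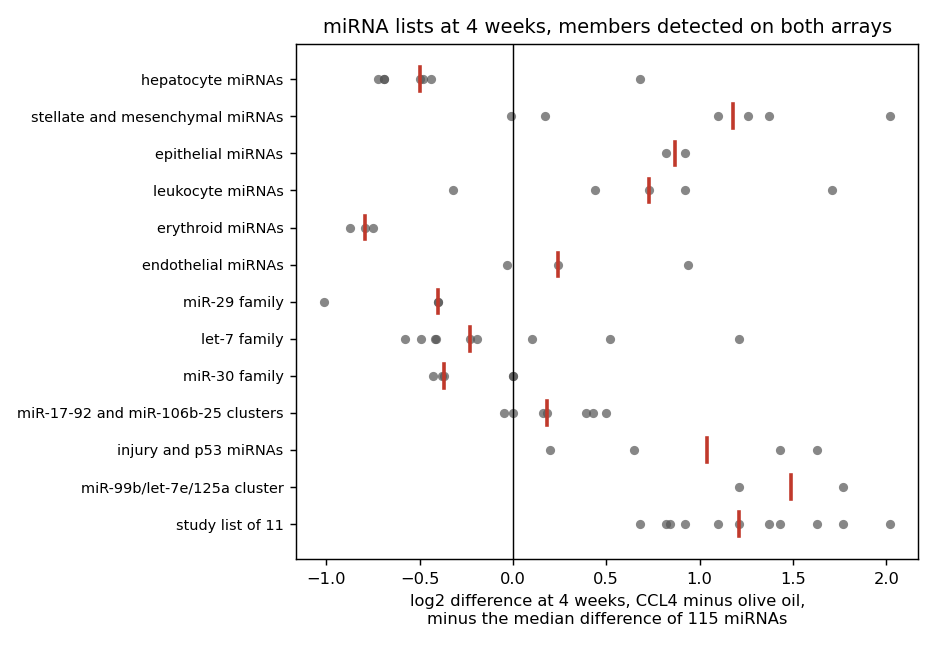
Centred log2 difference at 4 weeks (x axis, CCL4 minus olive oil, minus the median difference of 115 miRNAs) of the members of each list detected on both arrays (points), with the median of the list as a red bar. Medians ran from -0.79 for the erythroid miRNAs to 1.49 for the chromosome 17 cluster, with the hepatocyte list at -0.50 and the stellate and mesenchymal list at 1.18.

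Endothelial and proliferation miRNAs lay nearer to the median, with centred medians of 0.24 and 0.18. miR-126-3p, which is specific to endothelium, was 1312 against 1064 with a centred difference of -0.03, while miR-221, which is also induced in growing cells, was 61.3 against 25.3 with 0.94. The 7 members of the miR-17-92 and miR-106b-25 clusters detected on both arrays ran from -0.05 to 0.50, with none 1.5-fold from the median difference. miR-18a of the first cluster was detected with CCL4 only, at 28.5 against 7.10, at least 4.00-fold unscaled and 2.15-fold scaled. miR-27a, of the miR-23a cluster on chromosome 8, was higher than these (607 against 196, 3.10-fold and 1.67-fold), while its relative miR-27b was 193 against 138. All 4 pancreatic miRNAs were undetected, and of the 5 neuronal ones only miR-132 was a member (12.2 with CCL4 only).

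The differences of 4 weeks were set beside those of later weeks, which share no array with them. Over 113 miRNAs detected on all 8 arrays, the log2 differences at 4 weeks had a Pearson correlation of 0.67 with each comparison of 6 weeks and of 0.55 and 0.58 with those of 8 weeks. Without the 3 of these miRNAs that stood apart on the CCL4 array of 4 weeks it was 0.72 and 0.80, and 0.65 and 0.66. These are correlations across miRNAs, which are not independent, and the 2 comparisons of a week share a control array. Of the 30 miRNAs at least 1.5-fold above the median difference at 4 weeks, 22 (73.3%) lay above it on all 4 later arrays, against 28.3% of the 113. The 8 that did not were miR-494, miR-689, miR-709, miR-142-3p, miR-342-3p, miR-23a, miR-500 and miR-652. Of the 11 below by 1.5-fold, 6 (54.5%) lay below it on all 4 later arrays, against 31.0% of the 113, and these were miR-29c, miR-122, miR-192, miR-101b, miR-203 and miR-720. Not centred, on the scaled values, 14 of the 45 higher miRNAs were above the control array of the week on all 4 later arrays, against 14.9% of the 161, and 45 of the 59 lower ones were below it, against 49.1%.

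Single probes were compared within each miRNA. In the median miRNA of the 115 detected on both arrays the probes differed by 0.09 on the log2 scale. Among these the range was widest for miR-139-5p (26.9 against 25.9 in total signal), from -2.85 for a probe with mean spot signals of 0.515 and 3.71 to 0.05 for the brightest. The probes of miR-148b read 2.17 for the dim one and -0.03 for the other. Spots marked as outliers were left out of these comparisons. For 36 of the 115 miRNAs (31.3%) every remaining spot with CCL4 was above every remaining olive oil spot of the same probe on unscaled values. For 12 (10.4%) every remaining spot was below. After scaling these were 12 (10.4%) and 54 (47.0%).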

How the data were processed

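Total liver RNA was labelled with Cy3 and hybridized to Agilent mouse miRNA arrays, all 8 on 1 slide. The deposited intensity signals came from Feature Extraction 10.5.1.1 (mm9 annotation), run before deposit. It subtracted the background, combined the spots of each miRNA and called the miRNA detected or not. No scaling between arrays was in these signals. The deposited log2 table equals the log2 of these signals, with signals under 1 set to 1, to within 1.107e-06 over 4536 values. No spot was saturated. The number of arrays limits the precision.

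Signals were divided by the 75th percentile over 567 mouse miRNAs, taken on each array, floored at 0.01 and taken to log2, and unscaled values were kept beside them. With 1 array per treatment at 4 weeks no test was run, and a difference of 1.5-fold was counted. The spot error came from replicate spots within probes. The spot error, the spot ranges and the spot comparisons all left out spots marked as outliers. On simulated data the counts and the spot error were checked. Named miRNAs were the 12 largest and 12 smallest differences among those detected on both arrays, the 8 largest bounds, the 10 most abundant on the olive oil array and list members. Any other miRNA was chosen after its values were seen. The members and lists were chosen with earlier results of these data known. Sequences were found for 104 of the 161 members: 30 by name, 44 by the arm whose distance to neighbouring miRNAs was the same in both builds, 29 by the arm that the old name is known to denote, and 1 from the supplement. Both ways of choosing the arm gave the same answer for 13 of 13. Python 3.11.15 (numpy 2.4.6, pandas 2.3.3, matplotlib 3.10.9), R 4.3.3 and limma 3.58.1 (normexp, offset 50, and quantile normalization) were used. Alternatives covered scaling, floor, signal, filter and threshold. The mean of 3 olive oil arrays as control, scaling by 5 control features and miR-125b-5p in the study's list were added after the data were seen.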

Additional observations from a re-analysis of the deposited data

Results flagged for a closer look

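miR-494 differed between weeks on the scaled values. Its log2 difference was 1.53 at 4 weeks and -0.78 to -0.17 on the 4 later CCL4 arrays, while unscaled it was 2.43 at 4 weeks and -0.10 to 0.42 later. miR-689 had 1.05 at 4 weeks and -0.49 to -0.09 later on the scaled values, and 1.94 against 0.10 to 0.35 unscaled. Neither difference between weeks was tested, and the difference at 4 weeks rests on 1 array per treatment.

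Of 10 features on the array for miRNAs that are not of the mouse genome, 1 was detected, mghv-miR-M1-2, a name of a murine herpesvirus. At 4 weeks its signal was 21.4 with CCL4 and 15.6 with olive oil, with 14.8 and 17.5 on the other olive oil arrays and 17.1 to 22.7 on the later CCL4 arrays. All 8 arrays detected it.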

How the results depend on the processing

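How many miRNAs passed 1.5-fold upward (45) or downward (59) depended on the scaling. It was 80 and 5 with no scaling, and the lower count was 38 with the 75th percentile over miRNAs detected on both arrays, 37 with quantile normalization and 18 with the control features. The median log2 difference (-0.56) was 0.33, -0.29, -0.24 and -0.04 under these. Normexp with an offset gave 17 higher, 2 lower, a median of 0.04, 17 miRNAs 1.5-fold from the median difference in place of 43, and 2 in the replicate pairs in place of 8. The higher count was 25 with the floor at the lowest detected signal and 14 over miRNAs detected on both or on all 8 arrays. With no filter it was 97, with 106 lower. A threshold of 2-fold left 22 lower, 16 far from the median and 0 in the pairs. Quantile normalization moved the centred medians of the hepatocyte list to -0.07, stellate to 0.93, epithelial to 0.31, miR-29 to -0.08 and let-7 to 0.12. Normexp moved them to 0.31 for stellate, 0.08 epithelial, 0.39 leukocyte, -0.58 erythroid, -0.15 miR-30, 0.69 injury and p53, 0.59 for the chromosome 17 cluster and 0.50 for the study's 11. With the mean of the 3 olive oil arrays the erythroid median was -0.17. With no scaling 43 of 80 higher miRNAs and 0 of 5 lower ones held at 6 and 8 weeks. The share of all members that did so unscaled was not counted. Unscaled, the median log2 differences of the later comparisons were -0.1 and 0.35 at 6 weeks and 0.58 and 0.32 at 8 weeks. On the scaled values, leaving out 1 later CCL4 array gave 14 to 18 and 45 to 50. With no scaling 51 of the 115 miRNAs detected on both arrays went from below 0 to above 0. Among named miRNAs at least 1.5-fold lower on the scaled values, the sign turned with no scaling for let-7f (0.11), miR-146a (0.01), miR-126-3p (0.30), let-7d (0.14) and miR-25 (0.29), with quantile normalization for let-7f (0.31) and miR-126-3p (0.03), and with normexp for miR-126-3p (0.13) and miR-25 (0.12). The cause was not tested. Of 239 alternative values of the counts and list medians, 201 stayed within 1.5 times the reported count or within the replicate SD of 0.21. Part of this was fixed in advance, because a constant between arrays cannot move a centred count or a centred list median. Values of single miRNAs were not centred. With no scaling 69 of them moved by at least that SD and 5 more turned sign. With the 75th percentile over miRNAs detected on both arrays 74 moved. No paired analysis was possible, because no label links a CCL4 array to an olive oil array as a pair and each treatment had 1 array at 4 weeks.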

Other observations

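Star strands were set beside their guides at 4 weeks, and pairs differed in how alike they were. miR-22*, miR-30a* and miR-30e* had log2 scaled differences of -0.90, -1.06 and -0.95, and their guides -0.99, -0.99 and -0.94. miR-31* had 0.86 and miR-31 0.87. Other pairs lay farther apart, with 1.46 for miR-199b* and 0.81 for miR-199b, and -1.19 for miR-378* and -0.79 for miR-378. miR-877* (10.6 against 8.58, detected with CCL4 only) had -0.59, while miR-877 had 2.59 against a control signal below detection. miR-17* was detected with CCL4 only, at 17.5 against 4.15, while miR-17 itself was not detected on either array.

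Several members that no list held were higher. Among those detected on both arrays, miR-296-5p was 48.6 against 17.3 with CCL4 above control at every week, and miR-709, a feature of uncertain origin, was 749 against 265 at 4 weeks. miR-335-5p, detected with CCL4 only, was 8.48 against 1.49, and was above the control array of the week on all 4 later CCL4 arrays. miR-483, which lies within Igf2, was 21.2 on the CCL4 array of 4 weeks and was detected on no other array. miR-107, which acts on insulin signalling, was 203 against 239, a log2 scaled difference of -1.13. These were chosen after their values were seen.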
